A study of Mus musculus with 2 samples.

Results

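The hnRNP and SR splicing proteins were taken as all probe sets whose platform annotation gives exactly 1 gene symbol that begins with Hnrnp or Srsf, or that is Tra2a, Tra2b, Ptbp1, Ptbp2, Pcbp1, Pcbp2, Clk1 or Clk4. The rule uses names and no measured value. It found 37 genes with 114 probe sets, of 18193 genes so named in the whole table. A probe set is a group of short array probes made for 1 transcript or for several transcripts of a gene, and most genes here had more than 1 of them.

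RNA came from whole liver of female wild-type C57BL/6 mice, 8 weeks old. In the AKI group both kidneys had undergone 30 min of warm ischemia followed by reperfusion, which gives acute kidney injury (AKI), and in the sham group the mice had undergone a sham operation. All livers were harvested 24 h after surgery. In each group the livers of 3 mice were combined before RNA extraction and measured on 1 Affymetrix array, so the groups have 1 array each, variation between mice is unknown, and no test between groups exists. The study asked what differs in the liver when the kidneys are injured.

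SR proteins carry RNA recognition motifs and a tail rich in arginine and serine, and they usually promote the use of nearby splice sites by binding exons. The hnRNP proteins coat nascent transcripts, and many of them oppose SR proteins at exons or in introns, while some also act in mRNA stability and translation. CLK kinases phosphorylate SR proteins in the nucleus. Many genes of both protein families adjust their own output through alternative exons whose inclusion or skipping leads to decay of the transcript, so that 1 gene can yield transcripts with different fates. In the liver, Srsf3 is known from mouse knockouts to be needed for hepatocyte maturation.

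Values are signals in array units. Before the sham value was subtracted from the AKI value, 71.8 was added to each signal and log2 was taken, so that differences of weak signals are understated. Each gene is represented by its strongest probe set, the one with the highest mean level over both arrays, and a probe set passed the level filter when that mean was at or above the median of all probe sets other than controls. A probe set weak on 1 array could still pass through the other, as did those of Srsf11 at 416.8 (AKI) and 126.2 (sham) and of Hnrnpdl at 768 (AKI) and 147.3 (sham). In the other direction, a probe set of Hnrnpll at 212.5 (AKI) and 562.8 (sham) passed through the sham pool. Of the members 34 of 37 genes and 91 of 114 probe sets passed. A difference of at least 1 on the log2 scale is called 2-fold. Both arrays had been scaled to the same trimmed mean, and their median signals were 231.8 (AKI) and 225.8 (sham). The median difference of all 11962 genes past the filter was -0.02, with 1062 genes 2-fold higher and 1274 2-fold lower. It was 0.28 (1817 higher, 789 lower) when the arrays were centred on 18 hybridization controls and -0.22 (742 higher, 1798 lower) when they were centred on 12 reference genes. A gene was measured repeatedly only where it had several probe sets. In 4377 genes at least 2 passed, and the SD of the difference within a gene was 0.61, a spread between probe sets that leaves out the mice.

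The tissue label was borne out by hepatocyte markers, with signals of 98303.4 (AKI) and 124516 (sham) for Alb and 87199.9 and 95020.5 for Ttr in the same order. Ass1 was weak, at 185.4 (AKI) and 371.4 (sham). Of the 8 hepatocyte markers measured, all past the filter, 7 were below 0 and Fgb was at 0.88. Their median was -0.38, and 0 were 2-fold higher or lower. Markers of other cell types also differed between the pools. The summed signal of 7 of 8 neutrophil markers was 7531 in the AKI pool and 2744.6 in the sham pool, and 3 of the 6 past the filter were 2-fold higher. Of these 3, S100a8 (2023.4 AKI, 161.4 sham) and S100a9 (1666.6 AKI, 191.2 sham) were weak in the sham pool. They passed the filter through the AKI pool, so the count partly follows from the filter. Over all genes past the filter 8.88% were 2-fold higher and 10.7% 2-fold lower. The summed signal of 8 of 8 Kupffer cell and macrophage markers was 8189.7 in the AKI pool and 12852.2 in the sham pool, and of the 7 past the filter 1 was 2-fold higher and 2 were 2-fold lower. The higher one, Marco, at 640.3 (AKI) and 187.4 (sham), also passed through the AKI pool. For 7 of 7 sinusoidal endothelial markers the sums were 6033.1 (AKI) and 8617.4 (sham), and 3 of the 7 were above 0, with 1 of these, Lyve1, 2-fold higher, while 2 of the others were 2-fold lower. For 4 of 5 cholangiocyte markers the sums were 2799.8 (AKI) and 1112 (sham). Of the 2 past the filter 1 was 2-fold higher, Sox9, at 1729.9 (AKI) and 229.2 (sham). For 7 of 7 stellate cell markers the sums were 20598.3 (AKI) and 14469.6 (sham). Yet 5 of the 6 past the filter were below 0, and none was 2-fold higher or lower. The T cell, B cell and erythroid lists held no 2-fold marker past the filter. No marker was listed at 0. In whole liver, fewer cells of a type and less RNA per cell cannot be told apart, and the part of cell composition in the differences below was not tested.

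More members were 2-fold higher in the AKI pool than 2-fold lower. Of the 34 genes past the filter, 9 were 2-fold higher (26.5%), against 8.88% of all genes past the filter, and 3 were 2-fold lower (8.82%), against 10.7% of all genes. Of the 91 probe sets, 20 were 2-fold higher (21.98%), against 9.46% of all 22519 probe sets past the filter, and 5 were 2-fold lower (5.49%), against 9.73%. The higher ones include the probe sets of Srsf11 and Hnrnpdl that passed the filter through the AKI pool. The lower ones include that of Hnrnpll, which passed through the sham pool, so these counts partly follow from the filter. The 9 higher genes were Srsf2, Srsf3, Srsf5, Hnrnpa0, Hnrnpa1, Hnrnpab, Hnrnpdl, Hnrnph2 and Ptbp2, and the 3 lower genes were Srsf1, Srsf9 and Hnrnpul2. The median difference of the 34 genes was 0.34, and it lay between 0.14 and 0.63 under the other scalings of the arrays. Of the 34 genes 22 were above 0 and 12 below. With centring on reference genes Hnrnph1, Pcbp2 and Hnrnpm were below 0 instead (19 above, 15 below), and with centring on hybridization controls Srsf4, Clk1, Clk4, Ptbp1 and Hnrnpll were above it (27 above, 7 below). Averaging all passing probe sets of a gene instead of taking the strongest left 5 genes 2-fold higher, Hnrnpa0, Hnrnpdl, Hnrnph2, Pcbp2 and Srsf5, and 1 lower, Srsf9. The share of higher genes was then 14.7%, against 7.84% of all genes treated in that way.

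**Figure D1:**
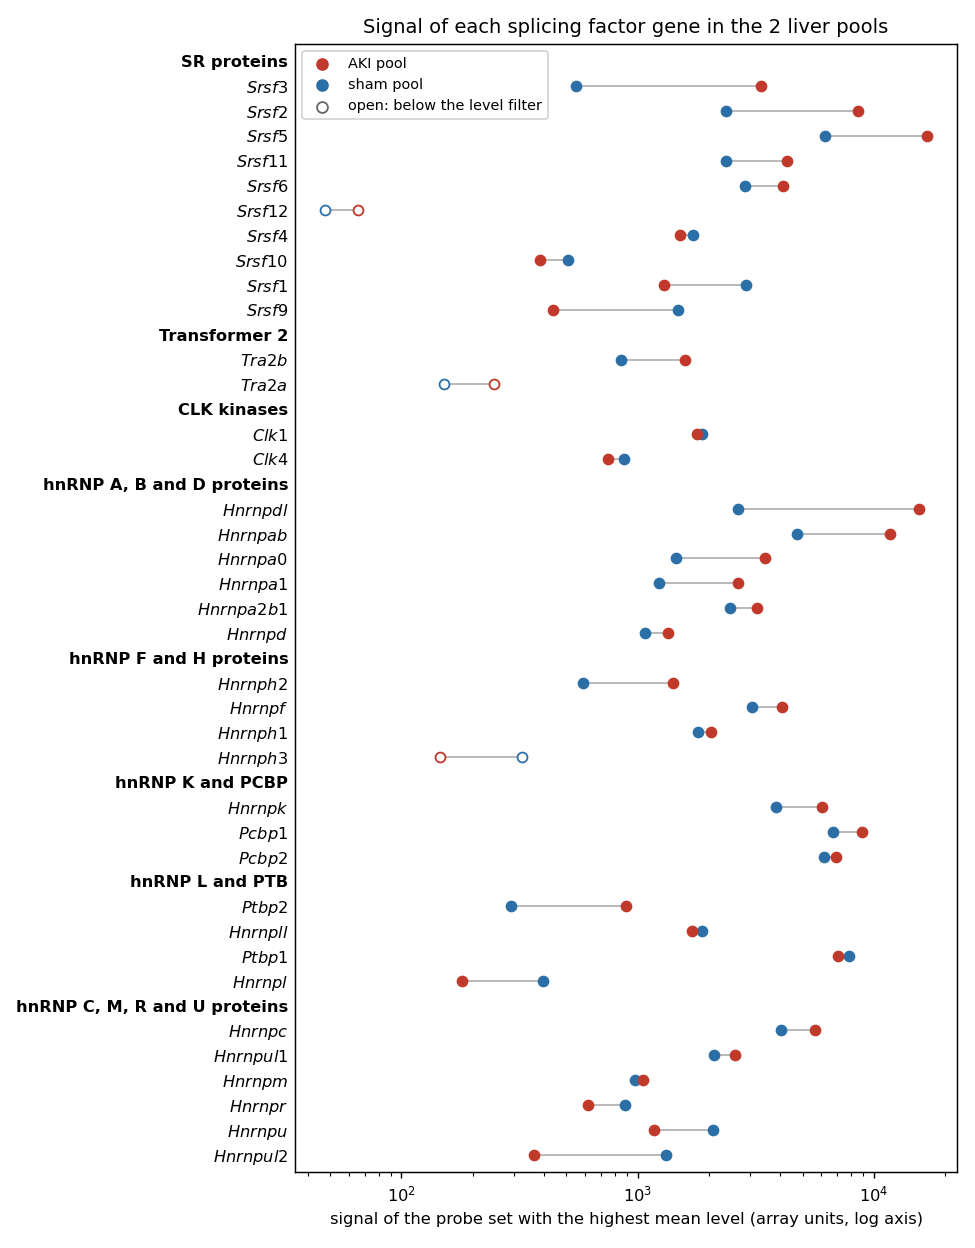
Signal in the AKI pool (red) and the sham pool (blue) for the strongest probe set of each of the 37 genes, in array units on a log axis, grouped by protein class; open points did not pass the level filter. The widest gaps with the AKI point to the right are those of Srsf3, Hnrnpdl and Srsf2, and those with the AKI point to the left are Hnrnpul2 and Srsf9.

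The SR proteins went both ways. Of 10 genes, 9 passed the filter, and 3 of these were 2-fold higher, 2 were 2-fold lower and 4 differed by less. The shares were 33.3% higher and 22.2% lower, against 8.88% and 10.7% of all genes past the filter. Srsf3, the smallest SR protein, which also links splicing to mRNA export, had a signal of 3333.6 in the AKI pool and 546.3 in the sham pool, a ratio of 6.10 and a log2 difference of 2.46. Its 5 passing probe sets ranged from -0.01 to 2.46, and 2 of them were 2-fold higher. Srsf2, also known as SC35 and used as a marker of nuclear speckles, had 8618.6 in the AKI pool and 2360.1 in the sham pool (1.84), with its other 3 probe sets between 0.11 and 0.70. Srsf5, first cloned in the rat as a gene induced in regenerating liver, had 16892.5 in the AKI pool and 6208.9 in the sham pool (1.43) from its only probe set. These 3 genes were thus higher in the AKI pool by 2.72 to 6.10 times in signal, but for Srsf2 and Srsf3 the size depended on the probe set.

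At the other end, Srsf9, an SR protein with a short arginine- and serine-rich tail, had 438.4 in the AKI pool and 1483.5 in the sham pool (-1.61), also from its only probe set. Srsf1, the SR protein first purified as an essential and alternative splicing factor, had 1297.8 in the AKI pool and 2873.8 in the sham pool (-1.10) in its strongest probe set. The other 5 passing probe sets of Srsf1 ran from -0.44 to 0.69, so that its probe sets did not share a direction, and with centring on hybridization controls Srsf1 was no longer 2-fold lower. Between these extremes, Srsf11 was at 0.84 and Srsf6 at 0.53. All 4 passing probe sets of each gene were above 0, and 1 of each was 2-fold higher, at 1.30 for Srsf11 and 1.23 for Srsf6. The probe set of Srsf11 at 1.30 was weak in the sham pool and passed the filter through the AKI pool. Srsf4 (-0.17) and Srsf10 (-0.33), a splicing repressor when dephosphorylated, differed little in their strongest probe sets, although 1 of the 3 passing probe sets of Srsf10 was at 0.94.

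The promoters of the 3 higher SR genes and of the lower Srsf9 are shown because they are the members of this class with the largest differences in each direction. Each run is the 250 bases before the annotated start, 5′ to 3′ along the gene, from RefSeq on GRCm38.p6. Srsf2 lies at chr11:116853095-116853344, minus strand, Srsf3 at chr17:29032410-29032659, plus strand, Srsf5 at chr12:80945249-80945498, plus strand, and Srsf9 at chr5:115326927-115327176, plus strand. Capitals mark exact matches on either strand to any of 6 motifs. These were the GC box with the letters GGGCGG, the box named for its own letters CCAAT, the core promoter box with the letters TATAAA, the cAMP response element with the letters TGACGTCA, the E-box with the letters CACGTG, and the ETS factor motif with the letters CCGGAAG. Where motifs overlap, their capitals run together.
Srsf2: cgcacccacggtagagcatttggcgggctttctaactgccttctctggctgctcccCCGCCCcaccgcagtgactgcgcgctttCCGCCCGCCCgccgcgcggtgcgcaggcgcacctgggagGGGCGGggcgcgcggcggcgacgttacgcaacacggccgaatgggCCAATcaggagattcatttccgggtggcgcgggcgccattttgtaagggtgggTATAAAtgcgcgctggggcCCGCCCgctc
Srsf3: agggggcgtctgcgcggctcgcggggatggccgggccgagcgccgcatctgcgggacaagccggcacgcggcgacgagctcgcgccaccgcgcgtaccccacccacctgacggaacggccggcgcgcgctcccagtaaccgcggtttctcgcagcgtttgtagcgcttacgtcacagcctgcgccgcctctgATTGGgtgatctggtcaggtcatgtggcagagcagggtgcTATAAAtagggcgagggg
Srsf5: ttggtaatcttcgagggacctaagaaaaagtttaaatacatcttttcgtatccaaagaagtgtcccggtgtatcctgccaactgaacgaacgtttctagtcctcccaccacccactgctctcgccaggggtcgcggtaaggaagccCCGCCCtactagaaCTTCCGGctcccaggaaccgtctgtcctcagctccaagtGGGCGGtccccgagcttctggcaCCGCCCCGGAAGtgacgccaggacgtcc
Srsf9: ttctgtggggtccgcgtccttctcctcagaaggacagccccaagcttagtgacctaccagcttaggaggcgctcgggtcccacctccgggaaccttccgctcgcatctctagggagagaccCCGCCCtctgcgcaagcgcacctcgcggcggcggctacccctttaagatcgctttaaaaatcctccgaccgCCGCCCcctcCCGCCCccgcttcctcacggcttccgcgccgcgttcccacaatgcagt

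Srsf2 and Srsf3 both held a TATA box, beginning 29 and 18 bases before the annotated start, and both held a CCAAT box. Srsf2 held 5 GC boxes besides. Srsf5 held 3 GC boxes and 2 ETS motifs, 1 of which overlaps a GC box, and Srsf9 held 3 GC boxes. Sharing letters of this kind is a description of the windows and shows no binding.

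The Transformer 2 proteins, SR-like activators of exon inclusion, were represented by Tra2b, with 1590.5 in the AKI pool and 850 in the sham pool (0.85). All 4 of its passing probe sets were above 0, from 0.03 to 1.10, and 1 was 2-fold higher. Tra2a had 6 probe sets, none past the filter, with differences from -0.24 to 1.26. The CLK kinases differed little. Clk1 had 1777.7 in the AKI pool and 1873.6 in the sham pool (-0.07), and Clk4 had 750 and 878 in the same order (-0.21). The sign of both turned with centring on hybridization controls, where their median was 0.16. A second, weak probe set of Clk4, below the filter, had 60.1 in the AKI pool and 425.9 in the sham pool (-1.92).

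The hnRNP A, B and D proteins, which bind AU-rich and other single-stranded RNA through paired RNA recognition motifs, held 4 of the 9 genes that were 2-fold higher. All 6 of their genes were above 0 in their strongest probe sets, with a median of 1.13 and of 0.93 when centred on reference genes. The 4 that were 2-fold higher were 66.7% of the 6, against 8.88% of all genes past the filter. With the probe sets of each gene averaged, Hnrnpa2b1 was at -0.17. Hnrnpa3 of this class is not counted, since its probe sets also name another gene, and these ran from -0.88 to -0.10. Hnrnpdl, a relative of Hnrnpd, had the largest difference of all members on this scale, with 15602.1 in the AKI pool and 2676.1 in the sham pool, a ratio of 5.83 and a log2 difference of 2.51. All 6 of its passing probe sets were above 0, and 4 were 2-fold higher, at 1.46, 1.94, 2.01 and 2.51. The probe set at 1.94 was weak in the sham pool and passed the filter through the AKI pool. The lowest of the 6, at 0.21, had 2720 in the AKI pool and 2343.6 in the sham pool, and the annotation takes it from the same sequence record as the probe set at 2.51. With a pseudocount of 1 Srsf3 came first, at 2.61, and Hnrnpdl was at 2.54.

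Hnrnpab, also known as CBF-A, had 11684.9 in the AKI pool and 4718.1 in the sham pool (1.30). Of its 5 passing probe sets 3 were 2-fold higher, at 1.30, 1.37 and 1.48, another was at 0.45, and the last had 2922.5 in the AKI pool and 4273.6 in the sham pool (-0.54). Hnrnpa0, which binds AU-rich elements of cytokine mRNAs, had 3458.7 in the AKI pool and 1459.9 in the sham pool (1.20) from 1 probe set. Hnrnpa1, the classical antagonist of Srsf1 in splice site choice, had 2669 in the AKI pool and 1238.8 in the sham pool (1.06), with its other passing probe set at 0.92. With centring on reference genes Hnrnpa1 and Hnrnph2 were below 2-fold. Hnrnpd, also known as AUF1, a regulator of the decay of AU-rich mRNAs, was at 0.31. Hnrnpa2b1 was at 0.36, but 1 of its 4 probe sets had 1523.8 in the AKI pool and 3588.1 in the sham pool (-1.20), while the other 3 lay between 0.06 and 0.36.

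The promoter of Hnrnpdl is shown because this gene and Srsf3 had the largest differences, with the same source, orientation and capitals as above. It lies at chr5:100039223-100039472, minus strand, and held 3 GC boxes and none of the other motifs searched.
Hnrnpdl: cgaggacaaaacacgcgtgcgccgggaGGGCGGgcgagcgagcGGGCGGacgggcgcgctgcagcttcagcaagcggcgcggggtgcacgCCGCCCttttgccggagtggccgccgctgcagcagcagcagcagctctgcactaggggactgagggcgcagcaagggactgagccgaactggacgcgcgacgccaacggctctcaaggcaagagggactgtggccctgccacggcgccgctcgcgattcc

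The hnRNP F and H proteins bind runs of G. All 3 genes past the filter were above 0, Hnrnph1 only without centring on reference genes. The remaining gene, Hnrnph3, was at -0.86 and narrowly missed the filter, with a mean log2 level of 8.1967 against 8.1973. Hnrnph2 had 1412.1 in the AKI pool and 587.1 in the sham pool (1.17) from 1 probe set. Hnrnpf was at 0.42 and its 4 probe sets lay between 0.21 and 0.88, and Hnrnph1 was at 0.18. The poly(C)-binding proteins, which share KH domains, differed by less than 2-fold in their strongest probe sets, at 0.63 for Hnrnpk, 0.40 for Pcbp1 and 0.17 for Pcbp2. The probe sets of Hnrnpk split into 2 at 0.62 and 0.63 and 2 at -0.42 and -0.24. For Pcbp2 a weaker probe set had 4937.2 in the AKI pool and 1281.4 in the sham pool (1.89), while the strongest had 6942 in the AKI pool and 6160.1 in the sham pool.

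Among hnRNP L and the polypyrimidine tract-binding proteins, Ptbp2, best known as the neuronal paralogue of Ptbp1, had 894.8 in the AKI pool and 290.4 in the sham pool (1.42), but its other probe set, from the same sequence record, was at 0.17. Ptbp1, a repressor of exons flanked by pyrimidine tracts, had 7098.6 in the AKI pool and 7874.1 in the sham pool (-0.15), with other probe sets at -0.19 and 0.65. Hnrnpl, which binds CA-rich RNA, had a weak signal of 179.9 in the AKI pool and 397.9 in the sham pool (-0.90), and it was 2-fold lower with a pseudocount of 1 (-1.14) and with centring on reference genes (-1.10). Hnrnpll, known for its role in exon skipping of Ptprc in T cells, was at -0.13 in its strongest probe set and at -1.16 in the weaker one. That weaker probe set passed the filter through the sham pool. The median of these 4 genes was -0.14, and 0.16 with centring on hybridization controls.

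The remaining hnRNP genes had a median of -0.18, which was 0.12 with centring on hybridization controls. Hnrnpul2, a relative of Hnrnpu with a role in the DNA damage response, had 363.1 in the AKI pool and 1321.8 in the sham pool (-1.68), the most negative difference of the members past the filter. Its other probe set had 408.8 in the AKI pool and 477.4 in the sham pool (-0.19), although the annotation takes both from 1 sequence record. Hnrnpu, a nuclear scaffold protein, was at -0.80 in the strongest of its 5 probe sets, and the other 4 lay between -0.29 and 0.32. Hnrnpr was at -0.47 in its strongest probe set, yet another of its 4 passing probe sets had 809.1 in the AKI pool and 316.5 in the sham pool (1.18). Hnrnpc, which binds uridine tracts, was at 0.47 in both passing probe sets, Hnrnpul1 was at 0.29, and Hnrnpm, which binds GU-rich RNA, was at 0.11.

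Probe sets of the same member gene often disagreed. The directions here are those with the authors' scaling, and centring on reference genes lowers every difference by 0.20. Of the 22 genes with at least 2 passing probe sets, 10 had them all above 0, 2 had them all below 0 (Hnrnpul2 and Hnrnpll), and 10 had them in both directions. The share with 1 direction was thus 54.5%, near the 59.9% of all genes with at least 2 passing probe sets. None of the 22 had all of its passing probe sets 2-fold higher or lower, and none had 2-fold differences in both directions. The SD of the difference within a gene was 0.69 over these 22 genes and 0.61 over all 4377 genes. The members' probe sets spanned at least 1 on the log2 scale in 17 of the 22 genes (77.3%) and in 28.5% of all genes, but the members also had more probe sets, 79 for 22 genes against 11144 for 4377. Among genes with exactly 4 passing probe sets the shares were 7 of 8 for the members (87.5%) and 50.1% for all genes. In these same genes the SD within a gene was 0.58 for the members and 0.62 for all, and the share with 1 direction was 62.5% for the members and 45.8% for all. With 2, 3 and 5 or more passing probe sets, the SD was 0.75, 0.63 and 0.78 for the members. For all genes it was 0.59, 0.61 and 0.63. The shares with 1 direction were 85.7%, 0% and 20% for the members, against 66.6%, 50.9% and 35.8%. These groups held only 7, 2 and 5 member genes, and the measures did not point 1 way. Across 15 sequence records from which at least 2 passing probe sets of a member were taken, the span was at least 1 for 5, those of Srsf3 (2.47), Hnrnpdl (2.30), Hnrnpul2 (1.49), Ptbp2 (1.25) and 1 of Srsf1 (1.06).

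**Figure D2:**
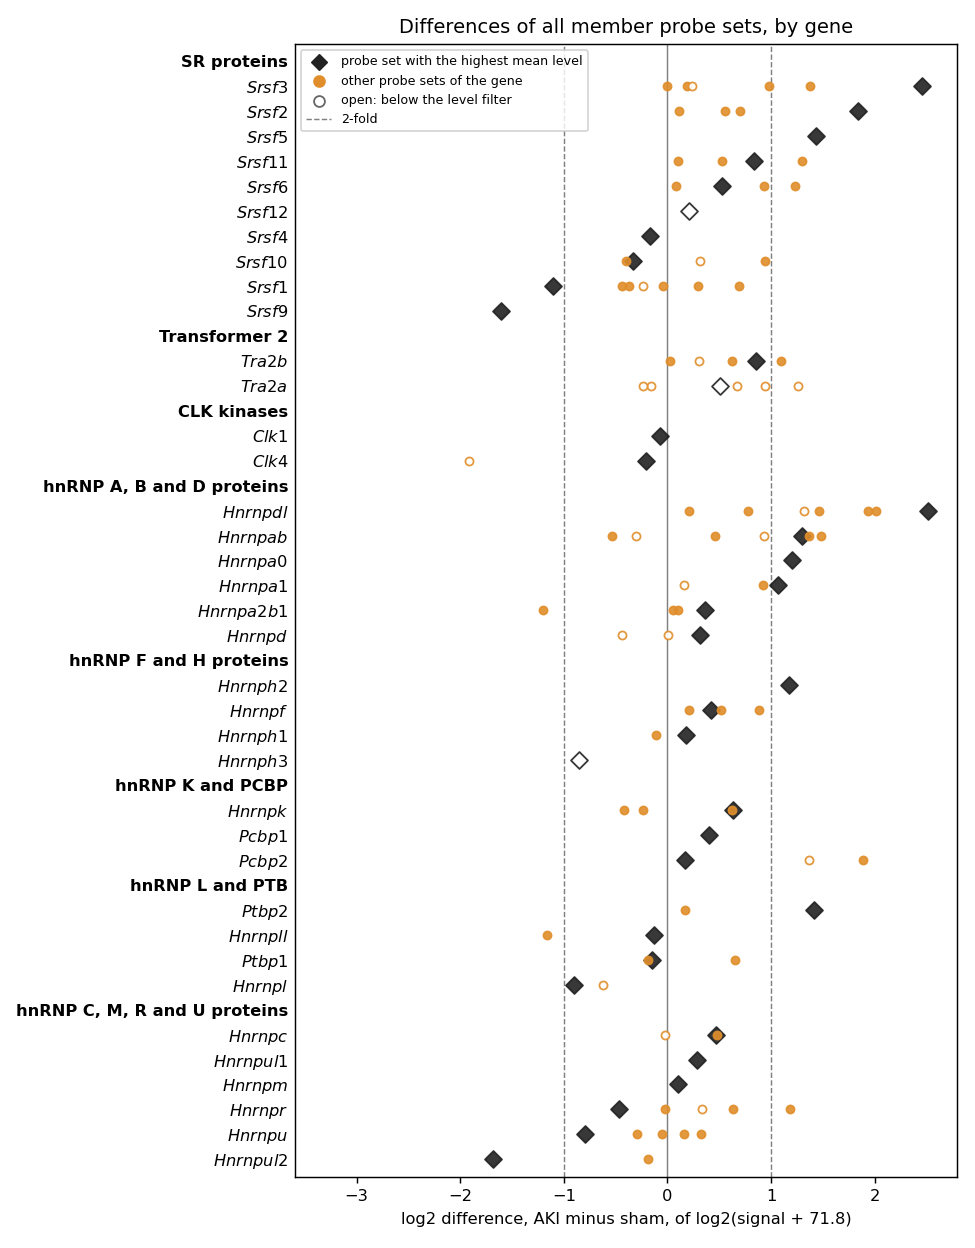
Log2 difference, AKI minus sham, of each of the 114 probe sets, 1 row a gene, grouped by protein class; diamonds mark each gene's strongest probe set, circles the others, open symbols did not pass the level filter, and dashed lines mark 2-fold. The probe sets of Hnrnpdl spread from 0.21 to 2.51 and those of Srsf3 from -0.01 to 2.46, while 10 genes have passing probe sets on both sides of 0.

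Of the 20 member probe sets that were 2-fold higher, 13 had the suffix _a_at, _s_at or _x_at, which marks probes that may match several transcripts of a gene or of other genes. Of 47 such member probe sets past the filter 13 were 2-fold higher (27.7%) and 2 lower, with a median of 0.56, and of the other 44 there were 7 higher (15.9%) and 3 lower, with a median of 0.18. Among all probe sets past the filter, 11.5% of those with these suffixes and 8.78% of the others were 2-fold higher. Without these probe sets 28 member genes could be measured. Hnrnpa0, Hnrnpab, Hnrnph2, Hnrnpr, Pcbp2 and Ptbp2 were then 2-fold higher (21.4%, against 8.59% of all genes), Srsf3 was at 0.19, Srsf2 at 0.11 and Hnrnpdl at 0.21. Srsf5 had no other probe set, and Hnrnpa1 only 1, below the filter, at 0.16. Of the lower genes Srsf1 was then at -0.44, and Hnrnpll was 2-fold lower in the probe set that passed through the sham pool. The ratio of 3′ to 5′ control signals of Actb was 2.24 on the AKI array and 1.61 on the sham array, and that of Gapdh was 1.05 and 0.860 in the same order. The part of this difference between the arrays in the spread within genes was not tested.

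Below the filter were 23 member probe sets, including every one of Srsf12 (65.5 in the AKI pool, 47.3 in the sham pool), Tra2a and Hnrnph3 (146.2 in the AKI pool, 323 in the sham pool). Of these 23, 3 were 2-fold higher and 1 was 2-fold lower. Over all 37 genes with no filter, the counts remained at 9 genes higher and 3 lower.

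Members with a higher level tended to have a higher difference. Level and difference are computed from the same AKI and sham signals, and the strongest probe set is picked by that level. The correlation is therefore a description and no sign that abundant genes respond more. Across the 34 genes Pearson's r between mean level and difference was 0.43 and Spearman's rho 0.45, against -0.0021 and -0.034 across all 11962 genes, where genes are not independent replicates and all points come from the same 2 arrays. Of the 34 genes, 23 were in the highest of 4 level classes of genes.

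**Figure D3:**
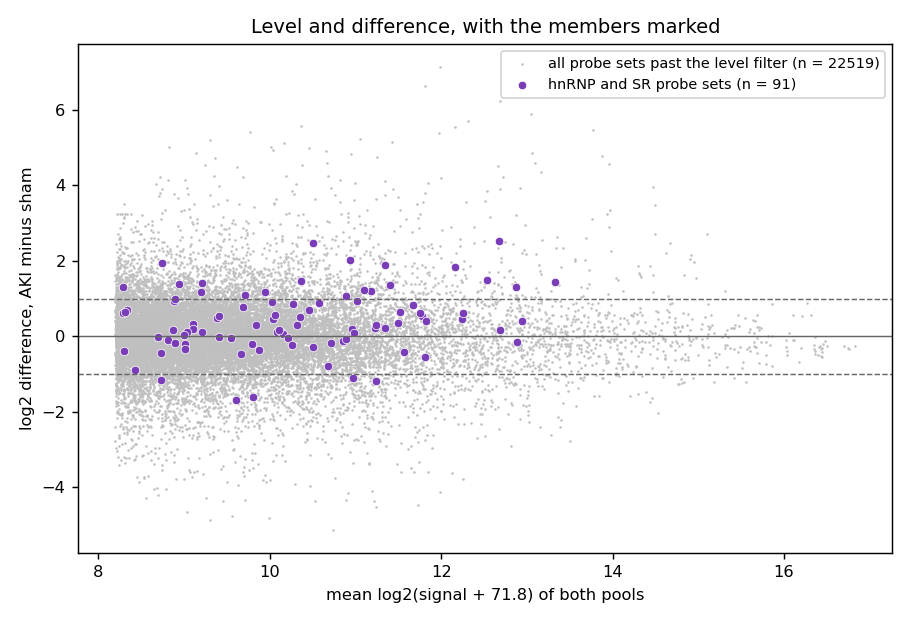
Log2 difference, AKI minus sham, against the mean log2 level of both pools for all 22519 probe sets past the level filter (grey), with the 91 member probe sets marked; dashed lines mark 2-fold. The members lie between -1.68 and 2.51, well inside the range of all probe sets of -5.12 to 7.13, and 20 lie above the upper line and 5 below the lower one.

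Other genes of the splicing machinery give the setting. SR-related proteins, many of which carry regions rich in arginine and serine, are not classical SR proteins. Their list had 20 genes past the filter with a median of 1.07. Of these, 11 were 2-fold higher (55%, against 8.88% of all genes past the filter) and 0 lower (against 10.7%). This list, like the others below, was chosen with earlier results of these data known, so its share is a description and no independent support. Srek1 (2.34), a splicing regulator, the RNA helicase gene Ddx39b (1.83), Nktr (1.68), a cyclophilin, and Rnps1 (1.66), a component linked to the exon junction complex, led that list. The lowest of their passing probe sets was at 0.23 for Srek1, 1.38 for Ddx39b and 0.78 for Nktr, while all 4 of Rnps1 were 2-fold higher. Srek1 was weak in the sham pool, at 1387.2 (AKI) and 215.6 (sham), and passed the filter through the AKI pool. With centring on reference genes 8 of the 20 were 2-fold higher and the median was 0.87.

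The core spliceosome list, with 45 genes past the filter, had a median of 0.32, and 5 were 2-fold higher, Plrg1 (1.57), Crnkl1 (1.49), Snrnp40 (1.33), Sf1 (1.13) and Snrpb2 (1.03), and 0 lower. The share of higher genes, 11.1%, is near the 8.88% of all genes. Snrnp40 was weak in the sham pool, at 407.2 (AKI) and 118.7 (sham), and passed the filter through the AKI pool. With centring on reference genes 3 of the 45 genes were higher and 2 lower. Nonsense-mediated decay and exon junction factors, 8 genes in all past the filter, had a median of 0.50, and none was 2-fold higher or lower, the largest differences being those of Smg1 and Smg9 (0.83 each), Casc3 (0.79) and Upf2 (0.51). Among other kinases and import receptors of SR proteins the median was 0.11 over 9 genes, and -0.09 with centring on reference genes. Dyrk1a (1.35) was 2-fold higher and Clk2 (-1.04) lower, 11.1% each, near the 8.88% and 10.7% of all genes. Dyrk1a was weak in the sham pool, at 647.1 (AKI) and 210.5 (sham), and passed the filter through the AKI pool. Other splicing regulators, 32 genes past the filter, lay on both sides of 0. Their median was 0.20, and it was about 0 with centring on reference genes. Tardbp (1.82), Qk (1.54), Rbm17 (1.44) and Sfpq (1.38) were 2-fold higher. Nono (-3.92), Rbm47 (-1.97) and Esrp2 (-1.14), an epithelial splicing regulator, were 2-fold lower. The shares, 12.5% higher and 9.38% lower, are near the 8.88% and 10.7% of all genes. Probe sets of Nono ran from -3.92 to 0.13 and those of Tardbp from -2.29 to 1.82. The 12 reference genes had a median of 0.20 with the authors' scaling.

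**Figure D4:**
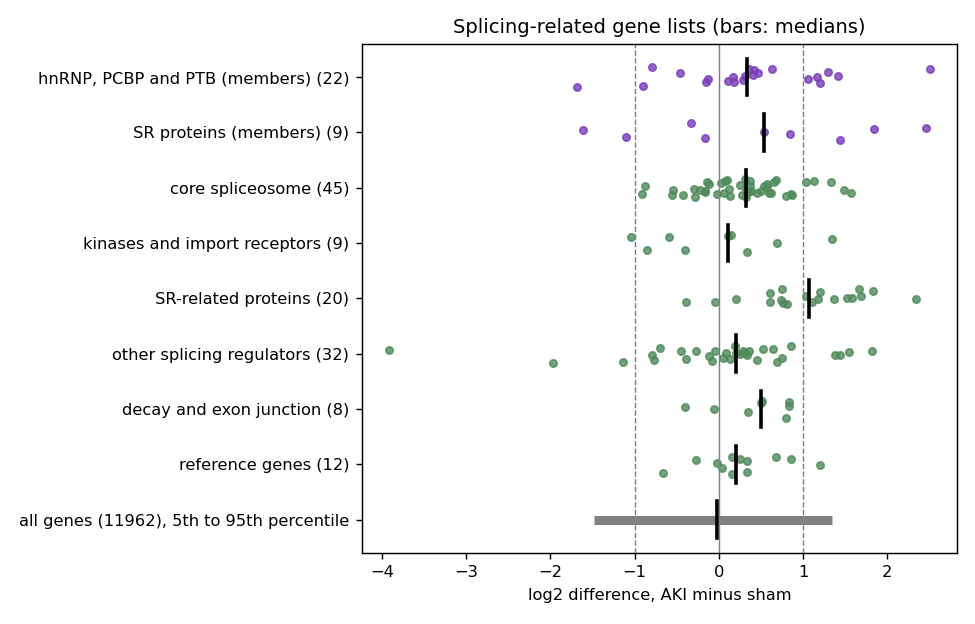
Log2 difference, AKI minus sham, of each gene past the level filter (points) in the member families (purple) and in other splicing-related lists and the reference genes (green), with the median of each as a black bar, the number of genes in brackets, and the 5th to 95th percentile of all 11962 genes as a grey bar. The SR-related list has the highest median, 1.07, while the medians of the hnRNP genes (0.34) and SR genes (0.53) lie near that of the core spliceosome (0.32). The lists were chosen with earlier results of these data known.

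Of the 37 genes 34 matched the RefSeq promoter table, with 47 windows, some of which overlap, and Clk1, Hnrnpll and Hnrnpul2 had no entry. A GC box was in 37 of the 47 windows (78.7%), against 32.7% of all 32851 windows, and the median GC content was 68% in the member windows and 52.4% in all. An ETS motif was in 23.4% of the member windows and 6.91% of all, a CCAAT box in 44.7% and 33.8%, an E-box in 8.51% and 6.02%, a cAMP response element in 4.26% (Clk4 and Tra2a) and 1.55%, and a TATA box in 6.38% (Hnrnpm, Srsf2 and Srsf3) and 12.4%. Windows of several starts of 1 gene can share letters. The windows of all genes were not limited to genes past the level filter or matched for GC content. Whether these shares are particular to splicing genes was not tested. Members above and below 2-fold were not compared by motif.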

How the data were processed

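Each RNA pool was made by putting frozen liver of 3 mice into 1 tube (100 mg, per the labels, which do not say whether this is per mouse). Total RNA was isolated with Trizol, and cRNA labelled with biotin from 8 ug of it was hybridized to an Affymetrix array. The authors deposited 1 signal intensity per probe set on a linear scale. For the software that made it, and for a genome build, the sources used here give no name. The mean after trimming 2% at each end is equal on both arrays, so the deposited values had been scaled to a common target, which removes any difference in total mRNA between pools. Of 45101 probe sets 64 are controls, and of the other 45037 the platform annotation names 34945 by 1 gene, 932 by several and 9160 by none. The 37 member symbols all equal those of the RefSeq gene table (GRCm38.p6).

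The pseudocount, 71.8, is the 25th percentile of all values. With 1 array per group there is no test and no p-value, and the number of arrays limits the precision. The filter on the mean level replaces one that accepts either array alone. All member genes could be named, and from each further list the 4 with the largest absolute difference past the filter, plus every gene of a count of at most 5. Members and lists were chosen with earlier results of these data known. Alternatives were the scaling, the filter, the pseudocount (1, or the table median of 228.7), an average over the probe sets of each gene, and only probe sets without the suffixes _s_at, _x_at and _a_at. Lowess used a fraction of 0.3. The computation was tested on simulated data. Software versions were 3.11.15 for Python, 2.4.6 for numpy, 2.3.3 for pandas, 1.17.1 for scipy, 0.14.6 for statsmodels and 3.10.9 for matplotlib.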

Additional observations from a re-analysis of the deposited data

How the results depend on the processing

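The medians of member genes and member probe sets stayed above 0 under all 12 alternatives run for genes and all 11 run for probe sets. Counts that moved by more than 1.5 times were these. With centring on hybridization controls 2 probe sets were 2-fold lower, against 5. With a pseudocount of 1 there were 5 lower genes, against 3, with Hnrnpl and Hnrnph3 added, since small signals gain weight. With only the probe sets that lack the suffixes _s_at, _x_at and _a_at, 7 were 2-fold higher, against 20, and 3 lower, against 5, with 44 of 91 probe sets left. When the probe sets of each gene were averaged, 5 genes were higher, against 9, and 1 lower, against 3, and the cause was not tested. Over 302 values of the 34 genes under the scaling, pseudocount and probe set alternatives, 283 moved by less than the within-gene SD of 0.61. The other 19 moved by more, and 0 of the genes past 2-fold turned their sign. All 19 arose where probe sets with suffixes were left out or probe sets were averaged. Centrings that shift every gene by the same amount, below 0.61, could not have moved any value, so the 283 is partly fixed by the choice of alternatives. No paired analysis was possible because each group has 1 array, and for the same reason no array could be left out. The signals of Srsf12, Tra2a and Hnrnph3 did not pass the filter, Hnrnph3 only narrowly, so the main counts leave them out. With 1 array per group the precision of their differences is unknown.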

Other observations

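Probe sets annotated with several genes were left out of the counts above, and 7 of them name Hnrnpa1 or Hnrnpa3. The 4 that name Hnrnpa3 together with the predicted gene Gm6793 all passed the filter and were lower in the AKI pool, at -0.88, -0.63, -0.49 and -0.10. The strongest of the 4 by mean level had 1703.3 in the AKI pool and 1825.3 in the sham pool. The 3 that name Hnrnpa1 together with 3 other genes, which include a pseudogene, were at 1.06, 0.57 and -0.54, the lowest being below the filter. All 6 genes of the hnRNP A, B and D proteins past the filter were above 0 in their strongest probe sets. Hnrnpa3, of the same family, was not among them because its probe sets cannot be assigned to it alone.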
